A study of Mus musculus with 16 samples.

Results

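The heart's non-collagen matrix was followed here through 38 genes, which were picked by name for their roles as matrix glycoproteins, elastic fibre proteins, proteoglycans, basement membrane proteins, proteases and their inhibitors, TGF-beta ligands and their binding proteins, and fibroblast markers. They were chosen with earlier results of these data known, so shares over all genes set beside them describe the data and are no independent test. They are 38 of 33399 genes counted, and all 38 had enough counts to be tested among 16400 genes. RNA was sequenced in bulk from the ventricles of wild-type C57BL/6 mice, 4 male and 4 female mice with chronic kidney disease (CKD) and 4 male and 4 female controls. The CKD mice were 8 weeks old at the start and ate chow with 0.25% adenine in turns with standard chow for 6 weeks, which injures the kidney, and the controls, for which the protocol states no age of their own, ate standard chow for 6 weeks. Each library came from 1 mouse, so the spread between libraries is a spread between animals and preparations.

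Cardiac fibroblasts make most of the heart's interstitial matrix, which carries force between myocytes, holds growth factors and is remodelled by proteases and their inhibitors. TGF-beta is secreted bound to latent TGF-beta binding proteins, which tether it to fibrillin and fibronectin, and its release drives fibroblasts to make periostin, tenascin C, fibronectin and other matrix proteins. In chronic kidney disease the heart is known to stiffen and to gain interstitial matrix.

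As a reference for the genes whose values carry the results, promoter windows from RefSeq (GRCm38.p6, 250 bases before to 50 bases after the transcript start) are shown for Sparc, Cilp and Thbs2, the members that were called under at least 1 alternative fit and have a window, and for Vim, the member with the lowest p of the fibroblast and mesenchyme genes. Each is written 5′ to 3′ on the gene's strand, with TATAAA and CCAAT matches on either strand in capitals. The windows are chr11:55420031-55420330 (minus strand) for Sparc, chr9:65264930-65265229 (plus) for Cilp, chr2:13574061-13574360 (plus) for Vim and chr17:14694213-14694512 (minus) for Thbs2.
Sparc: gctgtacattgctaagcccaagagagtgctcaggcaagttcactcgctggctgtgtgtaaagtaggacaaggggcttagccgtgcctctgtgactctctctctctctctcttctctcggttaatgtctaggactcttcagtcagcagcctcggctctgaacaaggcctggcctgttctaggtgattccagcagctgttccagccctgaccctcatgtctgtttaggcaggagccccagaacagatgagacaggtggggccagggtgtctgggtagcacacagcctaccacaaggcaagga
Cilp: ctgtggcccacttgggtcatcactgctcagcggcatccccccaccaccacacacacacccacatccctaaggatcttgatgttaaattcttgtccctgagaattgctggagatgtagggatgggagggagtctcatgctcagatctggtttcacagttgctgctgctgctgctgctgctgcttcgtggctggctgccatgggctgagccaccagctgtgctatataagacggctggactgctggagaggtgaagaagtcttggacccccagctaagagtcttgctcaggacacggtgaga
Vim: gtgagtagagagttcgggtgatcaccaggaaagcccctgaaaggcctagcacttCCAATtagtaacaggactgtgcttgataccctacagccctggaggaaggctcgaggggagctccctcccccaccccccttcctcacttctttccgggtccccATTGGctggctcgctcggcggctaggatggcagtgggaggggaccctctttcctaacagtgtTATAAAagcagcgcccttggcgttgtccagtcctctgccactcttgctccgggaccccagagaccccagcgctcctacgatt
Thbs2: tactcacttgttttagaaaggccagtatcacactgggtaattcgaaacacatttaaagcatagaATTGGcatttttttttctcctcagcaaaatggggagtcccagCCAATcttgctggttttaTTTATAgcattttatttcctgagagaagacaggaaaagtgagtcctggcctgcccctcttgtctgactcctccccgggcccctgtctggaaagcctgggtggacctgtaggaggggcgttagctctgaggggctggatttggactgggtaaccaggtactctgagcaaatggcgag
In the Vim window TATAAA began 32 bases before the start, and CCAAT lay on the plus strand 196 and on the minus strand 94 bases before it. The Thbs2 window held TATAAA on the minus strand 126 bases and CCAAT on the plus and minus strands 144 and 186 bases before the start. Neither motif was found in the Sparc or Cilp window. The Sparc and Vim windows lie inside the annotated genes and do not reach their outermost 5′ ends, at 55423183 and 13573927. RefSeq windows were matched for 28 of the 38 members, 33 windows in all. TATAAA was present in 21.2% of these windows, against 13.6% of all 32851 windows, CCAAT in 36.4% against 37.4%, and the GC box core GGGCGG in 57.6% against 35.7%. The AP-1 type motif TGANTCA was in 0 of 33 windows and in 7.81% of all windows, the TEAD type motif GGAATG in 12.1% against 14.7%, and the SMAD type motif GTCTAGAC in 0 of 33 against 0.213%. Both strands were searched, and the 6 motifs were such that none contains another. A match describes these letters and not a site in use, and nothing about a factor follows from its lack.

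Transcript levels of the members spanned a wide range when scaled to exon length (RPKM, which divides CPM by the exon length in kilobases, mean over 16 libraries). Mgp, which encodes matrix Gla protein, an inhibitor of calcification, stood highest at 140.8 RPKM, followed by the small leucine-rich proteoglycan genes Dcn at 101.0 and Ogn at 68.4 RPKM and by Sparc at 60.3 RPKM. The order of these leading genes changed between libraries, since Dcn reached only 17.6 RPKM in male CKD library 4 and was between 85.7 and 129.8 RPKM in the other 15. At the other end were Ltbp2 at 0.275 RPKM and Tnc at 0.112 RPKM. Tnc rested on 0 to 21 counts per library, with 0 counts in male CKD library 4, so its fold changes carry more counting error than those of the other members.

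**Figure D1:**
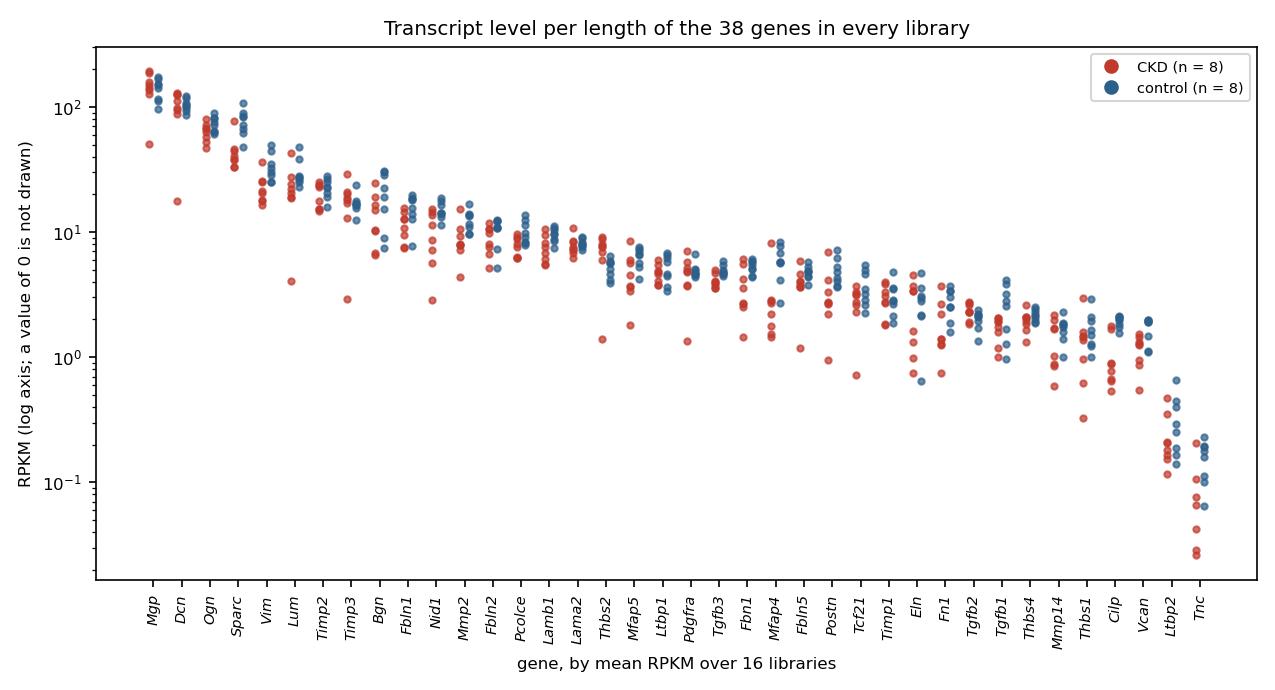
Level per exon length (RPKM, log axis) of the 38 genes in each of 8 CKD libraries (left points) and 8 control libraries (right points), ordered by the mean over 16 libraries. Mgp leads at a mean of 140.8 RPKM and Tnc is last at 0.112 RPKM, and 1 low CKD point, male CKD library 4, lies far below the rest in genes such as Dcn, Lum and Timp3.

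The libraries held 10203707 to 13626039 counts, and levels are given below as CPM, counts scaled to a common library size by TMM, which corrects for a few abundant genes. Sample titles carry a code with a number, of unstated meaning, which was 6 in 5 CKD and 5 control libraries, 2 in 1 CKD and 2 control libraries, 3 in 1 of each and 5 in 1 CKD library, and the number was tried as a technical grouping. A pair of CKD libraries stood apart in these genes. Male CKD library 4 was the lowest of all 16 libraries for 24 of the 38 members, against 16.1% of all tested genes, and the members took 0.100% of its counts, against 0.187% to 0.343% in the other 15. Female CKD library 4 was the highest of its group of 4 for 35 of the 38 members, and the share of all genes for which it was highest was not computed. The members took 0.328% of its counts, against 0.187% to 0.225% in the other 3 female CKD libraries. The counts and medians over the members are therefore also given without these libraries, as are the fold changes of the members that lead each role group.

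The median of log2 differences from the mean of the same-sex controls, over the 38 members, was -1.28 in male CKD library 4 and lay between -0.34 and 0.00 in the other 3 male CKD libraries. For female CKD library 4 it was 0.23, while the other 3 female CKD libraries lay between -0.54 and -0.46. Among controls the same median ran from -0.20 to 0.22. Over all tested genes the median deviation stayed between -0.02 and 0.05 in all 16 libraries.

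**Figure D2:**
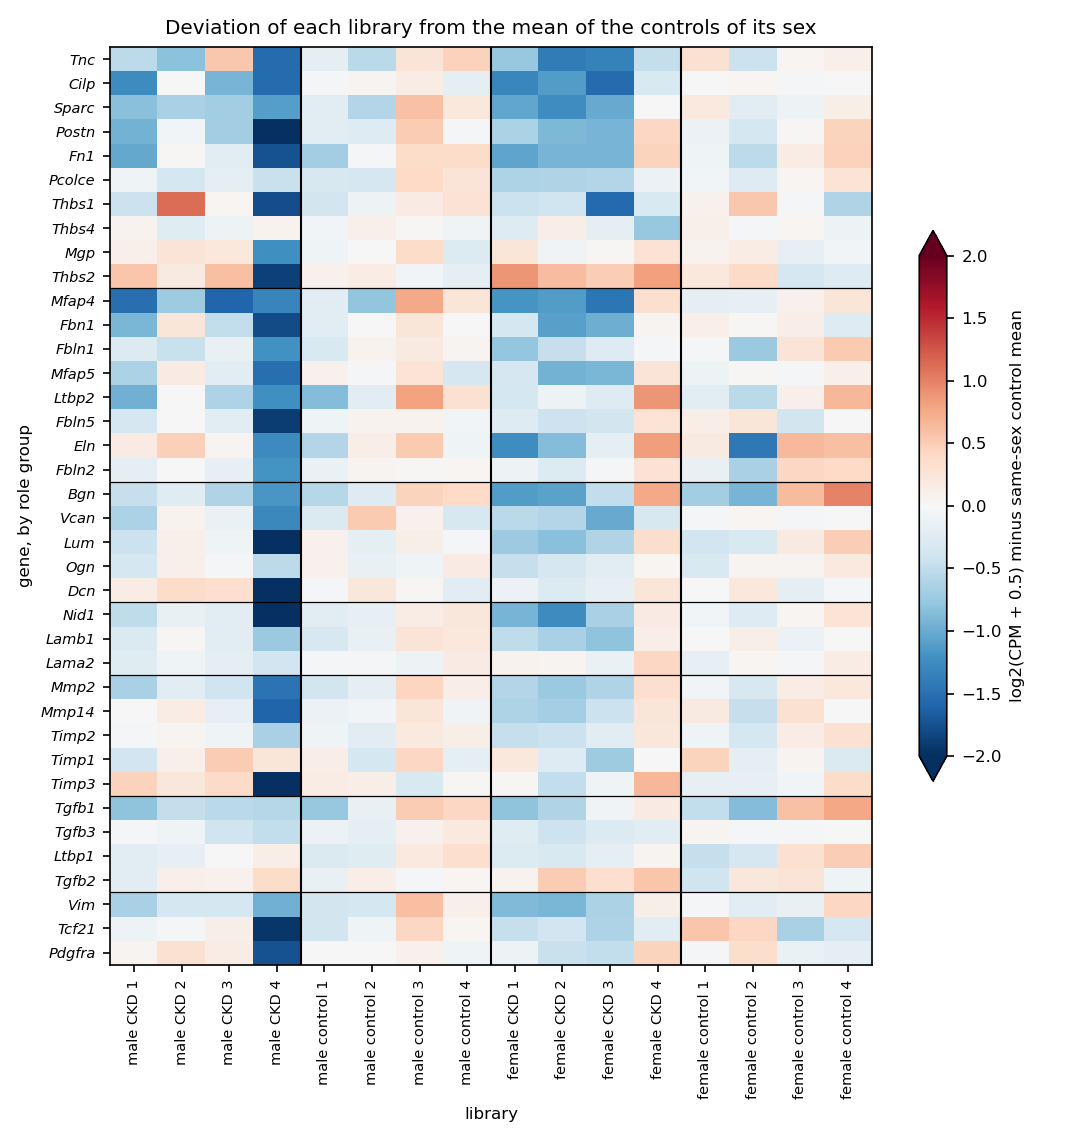
Deviation of each library (columns) from the mean of the controls of its sex on the log2(CPM + 0.5) scale, for the 38 genes (rows) grouped by role, with blue below and red above the control mean. Male CKD library 4 is blue in nearly every row (34 of 38 below the control mean), female CKD libraries 1 to 3 are blue in 32 to 35 rows, and female CKD library 4 is below the control mean in 10 rows.

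Sums of fibroblast, endothelial, pericyte and smooth muscle, macrophage and cardiomyocyte markers also stood apart in these libraries, except for cardiomyocyte markers in female CKD library 4. Not every other marker list did. The activated fibroblast sum of female CKD library 4, 314 CPM, lay within the 234 to 353 CPM of the other female CKD libraries. Female CKD library 4 had a fibroblast sum of 2205 CPM, against 1413 to 1547 CPM in the other female CKD libraries. Its endothelial sum was 2469 against 1551 to 1841, its pericyte and smooth muscle sum 1710 against 1389 to 1475, and its macrophage sum 446 against 339 to 372 CPM. Its cardiomyocyte sum, 60762 CPM, lay within their 52356 to 64463 CPM. Of 20 fibroblast markers that are no members, 18 had negative CKD fold changes (median -0.36), where 49.8% of all tested genes did. At an adjusted p below 0.05 edgeR called 0, limma-voom 0 and DESeq2 1 (DESeq2 called 1.06% of all genes lower and 1.37% higher). In edgeR 6 were lower at an unadjusted p below 0.05, as were 7.24% of all genes. Their summed level was 806 to 2258 CPM in CKD libraries and 1887 to 2522 CPM in controls, with the 806 CPM in male CKD library 4 and 2056 to 2258 CPM in the other male CKD libraries. Of 14 endothelial markers 13 were negative (median -0.27), their sum ran from 1067 to 2469 CPM in CKD libraries and from 1856 to 2345 CPM in controls, and the 1067 CPM was again male CKD library 4. Pericyte and smooth muscle markers had negative fold changes in 11 of 12 (median -0.26), with sums of 757 to 1794 CPM in CKD libraries and 1328 to 1766 CPM in controls. Of 14 macrophage markers 11 were negative (median -0.11), with sums of 206 to 454 CPM against 341 to 470 CPM. Cardiomyocyte markers ran the other way, with 4 of 15 negative (median 0.06) and sums of 52356 to 75849 CPM in CKD libraries, the highest being male CKD library 4, against 50346 to 66870 CPM in controls. In all 5 of the cell type lists named first no marker was at 0 in every library, and the part of cell makeup in the results below was not tested. In bulk RNA, fewer cells of a type and less RNA per cell cannot be told apart.

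CKD against control was tested in 8 against 8 mice with sex as a covariate. Of the 38 members, 34 had a negative log2 fold change, against 49.8% of all tested genes, and their median was -0.37, against 0.00 over all genes. None passed an adjusted p of 0.05 in edgeR's quasi-likelihood test, where 0.0427% of all genes were called lower and 0.0427% higher. At an unadjusted p below 0.05, 16 members were lower in CKD mice (7.24% of all genes were) and 0 were higher (8.12% of all genes were). DESeq2 called 3 members lower, Sparc, Cilp and Mfap4 (1.06% of all genes lower, 1.37% higher), and limma-voom with sample quality weights called these 3 too (0.476% lower, 0.738% higher). With the title code as a factor edgeR called the same 3 lower (0.512% of all genes lower, 0.915% higher), and with code 6 only it called Cilp and Mfap4 (0.0301% lower, 0.0181% higher). Without female CKD library 4, edgeR called these 3 as well (0.157% of all genes lower, 0.102% higher). Without male CKD library 2 it called Cilp alone (0.0362% lower, 0.0362% higher), and without male control library 2 it called Sparc alone (0.127% lower, 0.0965% higher). Most alternatives called none of these genes. Over 29 alternatives and libraries left out, Cilp was called in 8, Sparc in 7 and Mfap4 in 6. Members called by edgeR stayed at 0 with other scalings, with the GC trend removed and with no sex term. A log2 fold change below -0.5 was found in 13 members and in 5.07% of all genes. Summed over the 38 members, the level was 2372 ± 659 CPM in CKD mice and 2864 ± 256 CPM in controls (SD, n = 8 each).

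With male CKD library 4 and female CKD library 4 both left out, a choice made after seeing the data, 33 of 38 members were negative. Their median was -0.36, against -0.01 over all genes. At an unadjusted p below 0.05, 21 members were lower (8.85% of all genes) and 1, Thbs2, was higher (8.47% of all genes). Sparc, Cilp and Mfap4 were called lower by edgeR (0.254% of all genes lower, 0.151% higher), at log2 fold changes of -0.94, -1.04 and -1.37. The members named next had the same sign as with all libraries, and none was called. Among glycoproteins Postn had -0.70, Fn1 -0.71, Pcolce -0.42, Tnc -1.03 and Thbs2 0.56. Fbn1 had -0.54, Fbln1 -0.42 and Mfap5 -0.46 among elastic fibre genes, and Vcan had -0.48, Bgn -0.78, Lum -0.44 and Ogn -0.21 among proteoglycans. Of the other groups, Nid1 had -0.61, Lamb1 -0.40, Mmp2 -0.55, Mmp14 -0.30, Tgfb1 -0.67, Tgfb3 -0.24, Vim -0.66 and Tcf21 -0.31. Medians of the role groups without both libraries were -0.56 for glycoproteins, -0.44 for elastic fibre genes, -0.44 for proteoglycans, -0.40 for basement membrane genes, -0.20 for proteases and inhibitors, -0.23 for the TGF-beta group and -0.31 for fibroblast and mesenchyme genes. Of the proteoglycan genes 4 were lower at an unadjusted p below 0.05 in this fit, against 1 with all libraries, and of the elastic fibre genes 5, against 3.

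**Figure D3:**
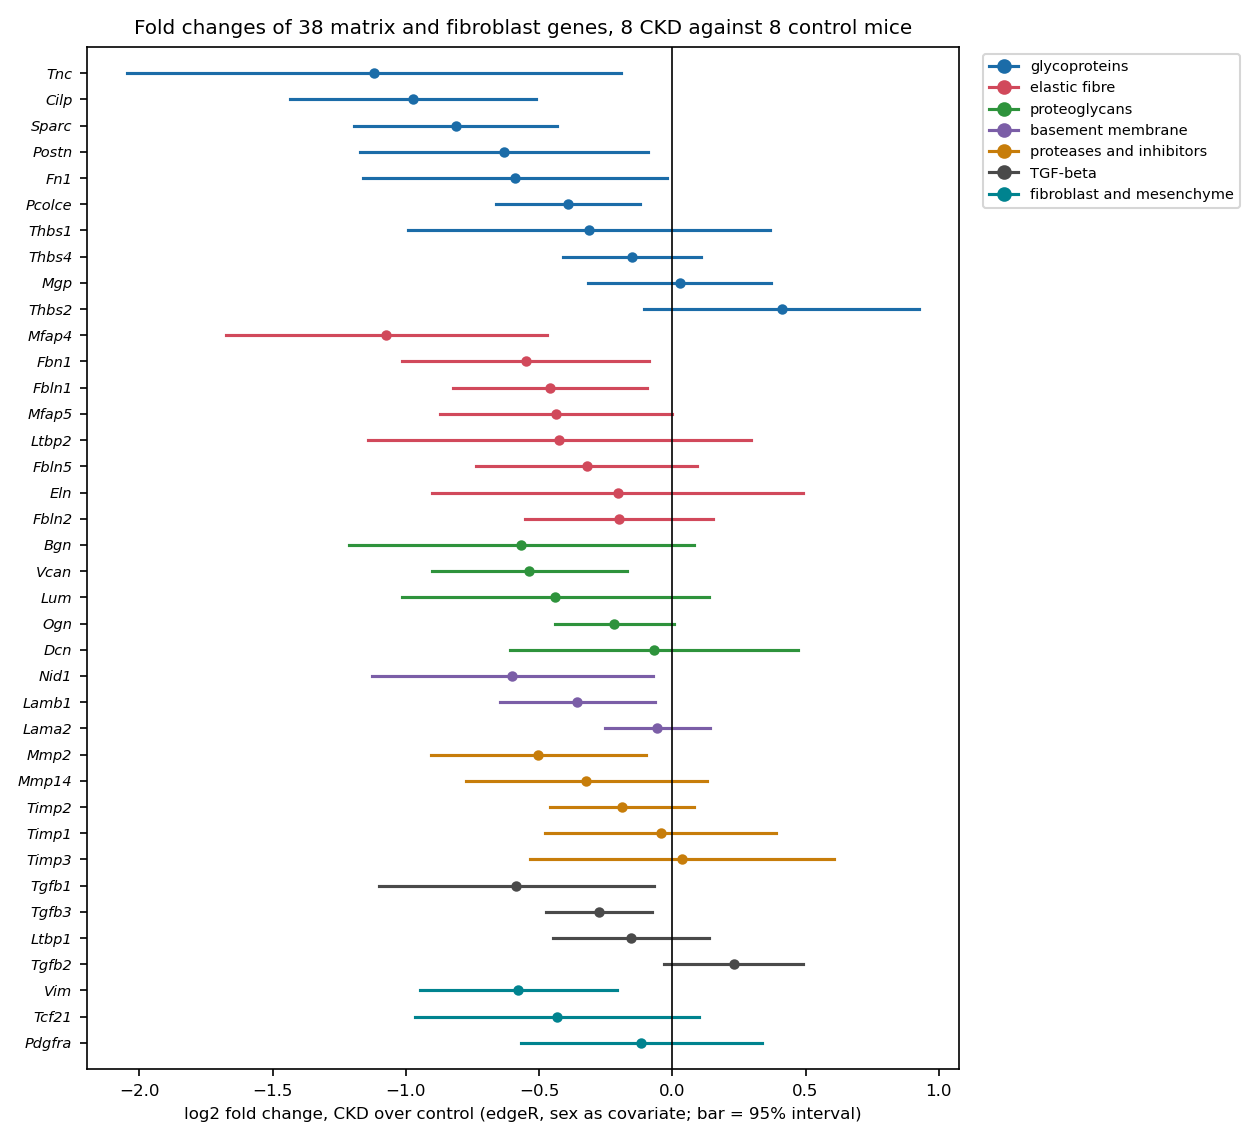
Log2 fold change of each of the 38 genes, CKD over control (edgeR, sex as covariate, 8 against 8 mice), with 95% intervals as bars and colours for role groups. The points of 34 genes lie left of 0, and the intervals of 16 of them end below 0 before adjustment for the number of genes tested.

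Matrix glycoproteins were the role group with the widest range. Of 10 members, 8 had negative fold changes (median -0.49), 6 had an unadjusted p below 0.05, and none was called by edgeR. The reference for this and the following role groups is all tested genes, of which 49.8% were negative. In edgeR 7.24% of them were lower and 8.12% higher at an unadjusted p below 0.05. DESeq2 called 1.06% lower and limma-voom 0.476%. With so few members in a group, a count of 1 or 2 is no result about that group. Sparc, on chromosome 11 (55394500 to 55423183, minus strand, GRCm38), encodes the collagen-binding glycoprotein SPARC, which helps procollagen to be processed and deposited as fibres. Sparc had 153, 174, 168 and 126 CPM in male CKD mice, against 234, 180.0, 410.5 and 315 CPM in male controls, and 142, 125, 146 and 295 CPM in female CKD mice, against 339, 253, 274 and 321 CPM in female controls. All 4 male CKD libraries lay below all 4 male controls, 3 of 4 female CKD libraries lay below every female control, and female CKD library 4 lay among the female controls. Its log2 fold change, CKD over control, was -0.81 (SE 0.18, 95% interval -1.19 to -0.43, adjusted p = 0.0946). With DESeq2 the adjusted p was 0.00555, and over all alternatives and libraries left out it ran from 0.00555 to 0.201.

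Cilp (chromosome 9, 65265180 to 65280605, plus strand) encodes cartilage intermediate layer protein, a matrix protein that binds TGF-beta and is made by fibroblasts in the heart. Cilp had 2.86, 7.59, 3.75 and 2.27 CPM in male CKD mice, against 7.42, 7.86, 8.48 and 6.60 CPM in male controls, and 3.31, 3.84, 2.74 and 7.12 CPM in female CKD mice, against 8.92, 9.11, 8.60 and 8.87 CPM in female controls. In females all 4 CKD libraries lay below all 4 controls, and in males 3 of 4 did, with male CKD library 2 between the controls. The log2 fold change was -0.97 (SE 0.22, 95% interval -1.43 to -0.51, adjusted p = 0.0946), and the adjusted p over the alternatives and the libraries left out ran from 0.00516 to 0.203. Without female CKD library 4 the log2 fold change was -1.13, and without male CKD library 2 it was -1.22.

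Pcolce encodes the enhancer of the protease that trims the C-terminal end of procollagens. Pcolce had 37.2, 30.9, 35.03 and 29.1 CPM in male CKD mice, against 31.6, 31.2, 52.6 and 47.5 CPM in male controls, and 23.5, 23.8, 24.1 and 33.4 CPM in female CKD mice, against 35.1, 30.2, 37.4 and 43.8 CPM in female controls. In females 3 of 4 CKD libraries and in males 2 of 4 lay below every control of their sex, and the groups overlapped in both sexes. The fold change was -0.39 (SE 0.13, adjusted p = 0.165). Tnc encodes tenascin C, which is scarce in the healthy adult ventricle and appears at sites of injury. It was at 0.513, 0.326, 1.61 and 0 CPM in male CKD mice, against 0.784, 0.505, 1.25 and 1.51 CPM in male controls, and 0.594, 0.202, 0.222 and 0.832 CPM in female CKD mice, against 1.78, 0.876, 1.39 and 1.48 CPM in female controls. All 4 female CKD libraries lay below the female controls, while the male groups overlapped. At -1.12 (SE 0.44, adjusted p = 0.237), its log2 fold change was the lowest of the 38 and had the largest standard error.

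The other glycoproteins were Postn, Fn1, Mgp and the thrombospondins. For Postn, the matricellular protein periostin of activated fibroblasts, the log2 fold change was -0.63 (SE 0.26, adjusted p = 0.251), and 6 of 8 CKD libraries lay below all 8 controls. Fn1, which encodes fibronectin, had -0.59 (SE 0.27, adjusted p = 0.311), with 5 of 8 CKD libraries below all controls. In female CKD library 4 Postn was at 60.4 CPM and Fn1 at 43.3 CPM, against 23.6 to 29.0 and 14.9 to 16.4 CPM in the other female CKD libraries. Mgp differed little, at 0.03 (SE 0.16, adjusted p = 0.943), with a sign that turned under 7 of the alternatives.

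Thbs2 had the largest positive fold change of the 38. It encodes thrombospondin 2, a matricellular protein that regulates collagen fibril assembly and clears MMP2, and lies on chromosome 17 (14665500 to 14694235, minus strand). Thbs2 had 54.2, 41.9, 56.6 and 9.76 CPM in male CKD mice, against 39.4, 40.8, 35.6 and 32.4 CPM in male controls, and 63.9, 53.5, 48.8 and 61.7 CPM in female CKD mice, against 39.9, 45.4, 27.4 and 28.8 CPM in female controls. All 4 female CKD libraries lay above all 4 female controls, a separation found in 5.08% of all genes, and 3 of 4 male CKD libraries lay above the male controls, with male CKD library 4 far below them. The log2 fold change was 0.41 (SE 0.25, 95% interval -0.11 to 0.93, adjusted p = 0.432). It became 0.63 with an adjusted p of 0.0463 in edgeR once male CKD library 4 and female control library 2 were both left out (0.0543% of all genes called lower, 0.0785% higher). For Thbs2 these libraries hold the lowest CKD and the highest control value. Without male CKD library 4 alone it was 0.58 (edgeR adjusted p = 0.0951), and Thbs2 was called in 1 of 29 alternatives. Thbs1, whose protein can activate latent TGF-beta, had -0.31 (SE 0.32, adjusted p = 0.657), and Thbs4, a thrombospondin of injured heart and tendon, -0.15 (SE 0.12, adjusted p = 0.566).

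**Figure D4:**
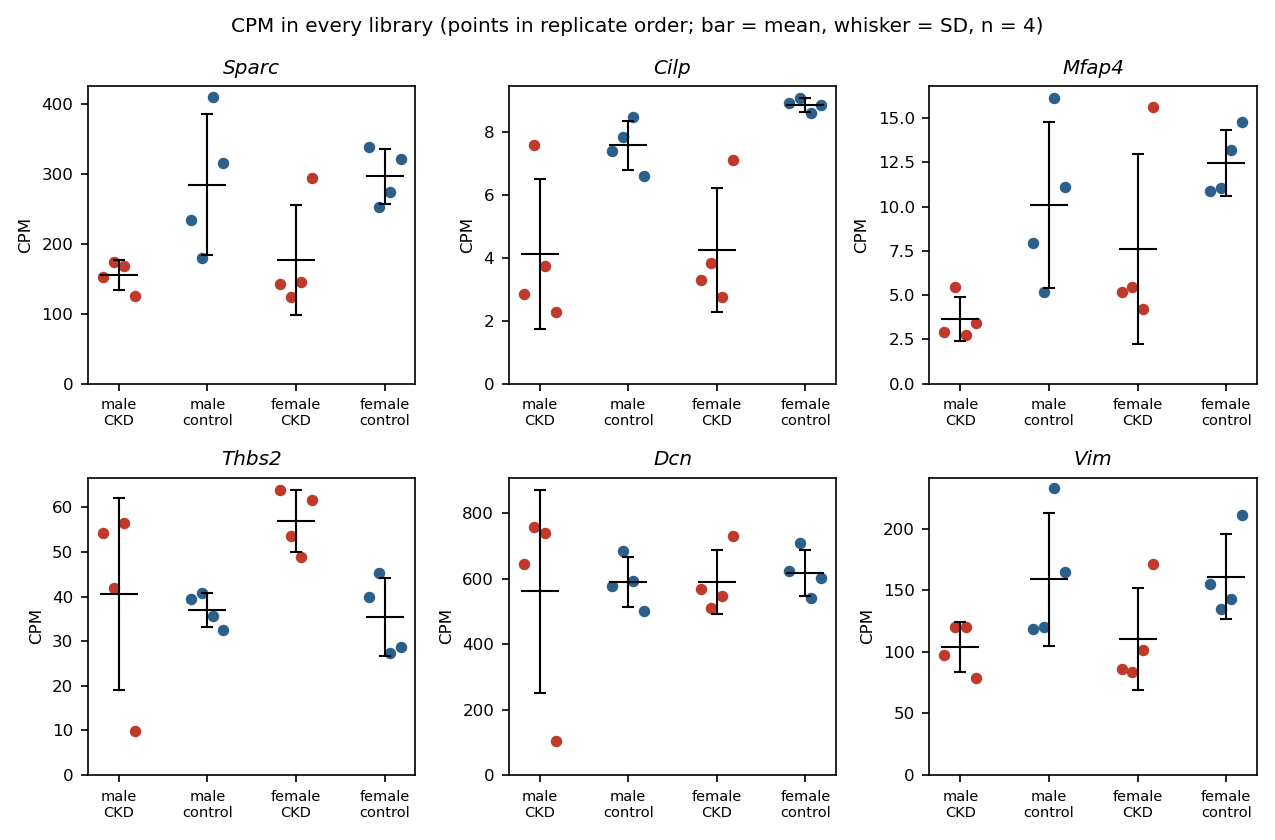
Level in every library (CPM, points in replicate order) of Sparc, Cilp, Mfap4, Thbs2, Dcn and Vim, with male CKD, male control, female CKD and female control from left to right and mean ± SD (n = 4) as bars. Sparc, Cilp and Mfap4 are low in most CKD libraries with 1 high female CKD point, Thbs2 is high in 7 of 8 CKD libraries compared with the mean of its controls, and Dcn is even across groups but for male CKD library 4 at 102.9 CPM.

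Elastic fibres consist of an elastin core within a scaffold of fibrillin microfibrils, to which fibulins, microfibril-associated proteins and LTBP2 bind. All 8 members had negative fold changes (median -0.43), 3 had an unadjusted p below 0.05, edgeR called 0, and DESeq2 and limma-voom called 1, Mfap4. Mfap4 (chromosome 11, 61485431 to 61488900, plus strand) encodes a microfibril-associated protein that binds elastin and collagen. Mfap4 had 2.93, 5.46, 2.77 and 3.41 CPM in male CKD mice, against 7.92, 5.19, 16.1 and 11.1 CPM in male controls, and 5.18, 5.45, 4.22 and 15.6 CPM in female CKD mice, against 10.9, 11.04, 13.2 and 14.8 CPM in female controls. In each sex 3 of 4 CKD libraries lay below all controls, male CKD library 2 lay between the controls, and female CKD library 4 lay above all female controls. The log2 fold change was -1.07 (SE 0.29, 95% interval -1.68 to -0.47, adjusted p = 0.114), and -1.40 without female CKD library 4. Its adjusted p over the alternatives and the libraries left out ran from 0.0128 to 0.229.

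Fbln1 encodes fibulin 1, which joins elastic fibres and fibronectin. It measured 63.02, 55.6, 68.6 and 32.5 CPM in male CKD mice, against 61.4, 80.3, 86.8 and 79.3 CPM in male controls, and 33.1, 41.1, 47.3 and 55.2 CPM in female CKD mice, against 55.1, 33.8, 68.3 and 81.7 CPM in female controls. The groups overlapped in both sexes, with 2 male CKD libraries and 1 female one below every control of their sex, and the log2 fold change was -0.46 (SE 0.17, adjusted p = 0.219). For Fbn1, the gene of fibrillin 1, the microfibril backbone that stores latent TGF-beta, the values were 32.5, 73.5, 43.7 and 17.5 CPM in male CKD mice, against 52.6, 61.4, 73.5 and 61.8 CPM in male controls, and 51.04, 30.5, 32.8 and 67.7 CPM in female CKD mice, against 70.1, 66.6, 71.3 and 54.2 CPM in female controls. Of 8 CKD libraries 6 lay below all 8 controls, and male CKD library 2 was slightly above them all. The log2 fold change was -0.55 (SE 0.22, adjusted p = 0.245). An antisense gene overlaps 20.1% of the Fbn1 exon length, and without the strand setting reads of the 2 genes cannot be told apart.

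Mfap5 encodes MAGP2, a microfibril component. Its levels were 12.2, 21.6, 16.3 and 6.44 CPM in male CKD mice, against 20.5, 18.8, 23.4 and 15.1 CPM in male controls, and 20.1, 13.02, 13.4 and 30.6 CPM in female CKD mice, against 23.96, 26.1, 25.2 and 27.5 CPM in female controls. In all, 2 male and 3 female CKD libraries lay below every control of their sex, and female CKD library 4 lay above them. Its fold change was -0.44 (SE 0.21, adjusted p = 0.326). The remaining elastic fibre genes had log2 fold changes of -0.42 (Ltbp2), -0.32 (Fbln5), -0.20 (Eln) and -0.20 (Fbln2), with adjusted p between 0.443 and 0.785. Eln, which encodes elastin itself, had controls as far apart as 5.26 to 38.4 CPM, against 6.03 to 36.8 CPM in CKD mice.

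Proteoglycans bind collagen fibrils and growth factors through a core protein and its sugar chains. All 5 members had negative fold changes (median -0.44), 1 had an unadjusted p below 0.05, and none was called by edgeR, DESeq2 or limma-voom. Vcan encodes versican, a large hyaluronan-binding proteoglycan. Vcan had 12.6, 20.8, 18.1 and 7.87 CPM in male CKD mice, against 16.1, 28.8, 21.2 and 15.8 CPM in male controls, and 19.1, 18.4, 13.6 and 22.1 CPM in female CKD mice, against 27.4, 28.7, 27.4 and 27.9 CPM in female controls. The 4 female CKD libraries lay below all female controls, and the male groups overlapped. The fold change of Vcan was -0.54 (SE 0.17, adjusted p = 0.159).

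The small leucine-rich members are Ogn, Bgn, Lum and Dcn, which regulate fibril diameter and spacing. Ogn, the gene of osteoglycin, had 135, 184, 170.1 and 119.8 CPM in male CKD mice, against 182, 155, 162 and 193 CPM in male controls, and 147, 161, 173 and 207 CPM in female CKD mice, against 164, 210.5, 211 and 231 CPM in female controls. In each sex 2 of 4 CKD libraries lay below every control, and the log2 fold change was -0.22 (SE 0.11, adjusted p = 0.336). Bgn, the gene of biglycan, had 101, 117, 91.3 and 61.7 CPM in male CKD mice, against 93.1, 116, 188 and 183 CPM in male controls, and 40.3, 41.6, 62.8 and 149 CPM in female CKD mice, against 54.2, 45.9, 137 and 176 CPM in female controls. Its female controls alone spanned 45.9 to 176 CPM, the groups overlapped, and the log2 fold change was -0.57 (SE 0.31, adjusted p = 0.387). Lum, the gene of lumican, had 46.7, 68.02, 59.7 and 9.86 CPM in male CKD mice, against 67.3, 56.03, 68.9 and 61.9 CPM in male controls, and 50.02, 45.9, 54.3 and 106 CPM in female CKD mice, against 63.6, 66.7, 93.9 and 117 CPM in female controls. Of 8 CKD libraries 5 lay below all controls, male CKD library 4 was the lowest of 16, female CKD library 4 was above every library but 1 female control, and the fold change was -0.44 (SE 0.27, adjusted p = 0.452). Dcn, the gene of decorin, had 646, 758, 739.7 and 103 CPM in male CKD mice, against 577, 686, 593 and 500.5 CPM in male controls, and 569, 511, 549 and 732 CPM in female CKD mice, against 622, 711, 539.9 and 602 CPM in female controls. Outside male CKD library 4 the groups overlapped, and the fold change was -0.07 (SE 0.26, adjusted p = 0.909) with all libraries and 0.09 without that library.

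Basement membranes sheathe cardiomyocytes and capillaries with laminin and collagen IV networks that nidogen joins. All 3 members had negative fold changes (median -0.36), 2 had an unadjusted p below 0.05, and none was called by edgeR, DESeq2 or limma-voom. Lamb1, the laminin beta 1 chain, had 75.8, 94.3, 80.6 and 55.3 CPM in male CKD mice, against 74.2, 83.9, 112 and 107 CPM in male controls, and 67.3, 60.6, 54.3 and 105 CPM in female CKD mice, against 95.6, 103, 87.8 and 95.7 CPM in female controls. The first 3 female CKD libraries and male CKD library 4 lay below all controls, and female CKD library 4 lay above the female ones. Its log2 fold change was -0.36 (SE 0.14, adjusted p = 0.228). Nid1, the gene of nidogen 1, had 78.5, 99.8, 94.6 and 19.8 CPM in male CKD mice, against 95.9, 99.01, 124 and 130.3 CPM in male controls, and 49.8, 39.5, 60.3 and 107 CPM in female CKD mice, against 91.5, 79.4, 98.3 and 115 CPM in female controls. In each sex 3 of 4 CKD libraries lay below every control, and the fold change was -0.60 (SE 0.25, adjusted p = 0.265). Lama2 encodes the laminin alpha 2 chain of the muscle basement membrane. It had 112, 124, 117 and 102 CPM in male CKD mice, against 130.1, 128, 123 and 149 CPM in male controls, and 139, 137, 120.4 and 177 CPM in female CKD mice, against 118, 136, 129.7 and 147 CPM in female controls. The log2 fold changes of Lama2 were -0.06 in both sexes, -0.22 in males and 0.11 in females, and in all of them the groups overlapped.

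Among proteases and inhibitors 4 of 5 members had negative fold changes (median -0.19), 1 had an unadjusted p below 0.05, and none was called by edgeR, DESeq2 or limma-voom. Mmp2 encodes gelatinase A, which degrades denatured collagen and basement membrane. Mmp2 had 26.6, 35.8, 31.6 and 14.8 CPM in male CKD mice, against 32.3, 36.9, 56.4 and 45.9 CPM in male controls, and 26.8, 24.1, 26.5 and 51.5 CPM in female CKD mice, against 39.2, 32.7, 45.2 and 47.4 CPM in female controls. Below all 8 controls lay 6 of 8 CKD libraries, male CKD library 2 lay within the male range, and female CKD library 4 lay above all female controls. The log2 fold change of Mmp2 was -0.50 (SE 0.19, adjusted p = 0.222). Mmp14, the gene of the membrane-bound protease that activates MMP2, had 11.7, 12.97, 10.3 and 3.51 CPM in male CKD mice, against 10.7, 11.2, 13.8 and 11.03 CPM in male controls, and 5.27, 5.05, 6.08 and 9.99 CPM in female CKD mice, against 9.52, 5.96, 10.4 and 8.28 CPM in female controls. In each sex 2 CKD libraries lay below the controls, and the fold change was -0.32 (SE 0.21, adjusted p = 0.482).

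TIMP2 inhibits MMP2 and, with MMP14, also takes part in its activation. Timp2 had 92.8, 97.96, 88.9 and 60.1 CPM in male CKD mice, against 89.4, 80.6, 109 and 103 CPM in male controls, and 57.7, 59.1, 68.5 and 92.6 CPM in female CKD mice, against 74.5, 62.2, 87.7 and 97.9 CPM in female controls. The groups overlapped in both sexes, and the log2 fold change was -0.19 (SE 0.13, adjusted p = 0.487). Timp1, an inhibitor gene that fibrotic hearts induce, had 1.61, 2.45, 3.40 and 2.75 CPM in male CKD mice, against 2.496, 1.66, 3.16 and 1.89 CPM in male controls, and 3.57, 2.42, 1.63 and 2.96 CPM in female CKD mice, against 4.25, 2.54, 3.11 and 2.36 CPM in female controls. At 1.61 to 3.57 CPM in CKD mice and 1.66 to 4.25 CPM in controls the ranges overlapped almost throughout, and the log2 fold change was -0.04 (SE 0.21, adjusted p = 0.928). Timp3 encodes a matrix-bound inhibitor and had 0.04 (SE 0.27, adjusted p = 0.955). It was at 23.7 CPM in male CKD library 4 and above all male controls in the other 3 male CKD libraries, and 21.3% of its exon length overlaps exons on the other strand, of Syn3.

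The TGF-beta group held 3 ligands and a binding protein, of which 3 of 4 had negative fold changes (median -0.21), 2 had an unadjusted p below 0.05, and none was called by edgeR, DESeq2 or limma-voom. Tgfb3, the gene of TGF-beta 3, had 16.9, 16.1, 12.9 and 12.03 CPM in male CKD mice, against 15.8, 15.1, 18.3 and 19.7 CPM in male controls, and 13.6, 12.01, 13.3 and 13.8 CPM in female CKD mice, against 16.9, 15.9, 15.7 and 16.4 CPM in female controls. All 4 female CKD libraries lay below all female controls and 2 of 4 male ones below the male controls. The fold change was small, at -0.27 (SE 0.09, adjusted p = 0.180), and 12.4% of the exon length of Tgfb3 overlaps genes on the other strand. Tgfb1, the ligand most tied to fibrosis, had 8.06, 10.3, 9.83 and 9.57 CPM in male CKD mice, against 8.41, 12.98, 20.8 and 19.4 CPM in male controls, and 5.10, 5.96, 8.82 and 10.4 CPM in female CKD mice, against 6.46, 4.91, 14.3 and 16.3 CPM in female controls. Only male CKD library 1 lay below the controls of its sex, the controls spanned 4.91 to 20.8 CPM, and the log2 fold change was -0.58 (SE 0.25, adjusted p = 0.267).

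Tgfb2 had the other sign. The gene of TGF-beta 2 had 10.6, 13.4, 13.2 and 16.1 CPM in male CKD mice, against 11.2, 13.7, 12.2 and 12.7 CPM in male controls, and 11.04, 15.04, 13.3 and 15.6 CPM in female CKD mice, against 7.82, 12.4, 12.6 and 9.85 CPM in female controls. Of the female CKD libraries 3 of 4 lay above all female controls, and 1 of 4 male ones above the male controls, and the fold change was 0.23 (SE 0.12, adjusted p = 0.385). Ltbp1, whose protein binds latent TGF-beta and anchors it in the matrix, had 49.5, 51.8, 57.99 and 63.6 CPM in male CKD mice, against 47.3, 48.97, 66.3 and 72.8 CPM in male controls, and 40.7, 39.98, 43.6 and 51.2 CPM in female CKD mice, against 35.9, 39.2, 61.3 and 69.7 CPM in female controls. None of the 8 CKD libraries lay outside the range of the controls of its sex, and the fold change was -0.15 (SE 0.14, adjusted p = 0.609).

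The fibroblast and mesenchyme genes were all 3 negative (median -0.43), 1 had an unadjusted p below 0.05, and none was called by edgeR, DESeq2 or limma-voom. Vim (chromosome 2, 13573927 to 13582826, plus strand) encodes vimentin, the intermediate filament of mesenchymal and endothelial cells. Vim had 97.1, 120.3, 120.0 and 78.5 CPM in male CKD mice, against 118, 120.1, 233 and 165 CPM in male controls, and 85.9, 83.9, 102 and 172 CPM in female CKD mice, against 155, 135, 143 and 212 CPM in female controls. As many as 2 male and 3 female CKD libraries lay below all controls of their sex, female CKD library 4 lay among the female controls, and the log2 fold change was -0.58 (SE 0.17, 95% interval -0.95 to -0.21, adjusted p = 0.136). Tcf21 encodes a transcription factor of resident cardiac fibroblasts. Its values were 7.47, 7.83, 8.76 and 1.71 CPM in male CKD mice, against 6.13, 7.500, 10.8 and 8.30 CPM in male controls, and 6.11, 6.46, 5.41 and 7.40 CPM in female CKD mice, against 12.9, 11.6, 5.33 and 6.70 CPM in female controls. Only male CKD library 4 lay outside the range of the controls of its sex, and the log2 fold change was -0.43 (SE 0.25, adjusted p = 0.422). Pdgfra, a receptor that marks the fibroblast lineage, had 48.7, 57.99, 51.9 and 13.6 CPM in male CKD mice, against 46.8, 46.4, 49.7 and 43.8 CPM in male controls, and 48.3, 37.9, 36.8 and 70.6 CPM in female CKD mice, against 50.9, 66.4, 47.03 and 45.3 CPM in female controls. Male CKD libraries 2 and 3 lay above the male controls, library 1 lay within them and library 4 below them, and the fold change was -0.12 (SE 0.21, adjusted p = 0.812), or 0.02 without male CKD library 4.

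The fold changes of each sex came from a model of the 4 groups. In males 33 of 38 members were negative (48.6% of all genes), with a median of -0.33. No member was called there by edgeR, DESeq2 or limma-voom, which called 0, 12 and 0 of all genes. On the lower side 6 had an unadjusted p below 0.05 and on the higher 0 (2.95% and 3.93% of all genes). In females 32 were negative (50.7% of all genes), with a median of -0.39. There edgeR called none (0.0305% of all genes lower and 0.0244% higher), and DESeq2 called none (32 of all genes). Sparc was the 1 member that limma-voom called in females, where it called 55 of all genes. An unadjusted p below 0.05 was found for 7 members on the lower side and 0 on the higher (4.18% and 4.16%). In both sexes at once 30 members were negative, as were 35.7% of all genes. Male CKD values lay wholly below male control values in 1 member, Sparc (1.56% of all genes), and female CKD values below female control values in 4, Cilp, Tgfb3, Tnc and Vcan (2.49%).

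The sex-specific medians rested in part on the 2 libraries that stood apart. These libraries were singled out by the values of these same members. The direction in which counts and medians move without them follows from that choice and is no independent support. Without male CKD library 4 the male median was -0.16 with 28 of 38 negative, against 47.8% of all genes. At an unadjusted p below 0.05 there were then 3 members lower (2.78% of all genes) and 2 higher, Dcn and Thbs2 (2.96% of all genes), where all libraries had given 6 and 0. Without female CKD library 4 the female median was -0.63 with 35 of 38 negative (51.3% of all genes), 16 members were lower at an unadjusted p below 0.05 (6.32% of all genes) and 0 higher (4.72%), and none was called. With both libraries left out of 1 fit the medians were -0.16 in males (28 of 38 negative, against 47.8% of all genes) and -0.64 in females (35 of 38, against 52.5%). In that fit 6 members were lower and 3 higher in males at an unadjusted p below 0.05 (2.93% and 3.16% of all genes), and 25 lower and 1 higher in females (8.71% and 6.44%). A fit with only the libraries of title code 6 leaves out both and also male CKD library 2, male control libraries 3 and 4 and female control library 4. There the median was -0.10 in males (24 of 38 negative, against 48.1% of all genes) and -0.57 in females (34 of 38, against 53.1%). Inside code 3, male CKD library 4 was lower than male control library 3 in 36 of 38 members, with a median log2 ratio of -1.74. Over all genes 44.8% were lower in that pair, with a median of 0.07. Inside code 2, female CKD library 4 was lower than female control library 4 in 19 of 38, with a median of 0.03, against 50.3% of all genes. Each of these pairs is 1 library against 1 and has no test.

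Whether the CKD effect differed between females and males was tested by the interaction. It was called for 0 of 38 members by edgeR, DESeq2 and limma-voom, and 0 had an unadjusted p below 0.05 in edgeR (1.01% of all genes lower and 0.671% higher). The largest differences, female minus male effect, were 0.99 (SE 0.66) for Ltbp2, -0.88 (SE 0.90) for Tnc, -0.76 (SE 0.64) for Thbs1 and 0.75 (SE 0.56) for Mfap4. Over the 38 members the standard error of the difference ran from 0.18 (Lama2) to 0.90 (Tnc). Between female and male controls 0 of 38 members were called by edgeR (0.0061% of all genes were called higher), DESeq2 and limma-voom, 0 had an unadjusted p below 0.05 in edgeR (4.48% of all genes lower and 2.33% higher), and 15 of 38 were lower in females (48.5% of all genes).

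**Figure D5:**
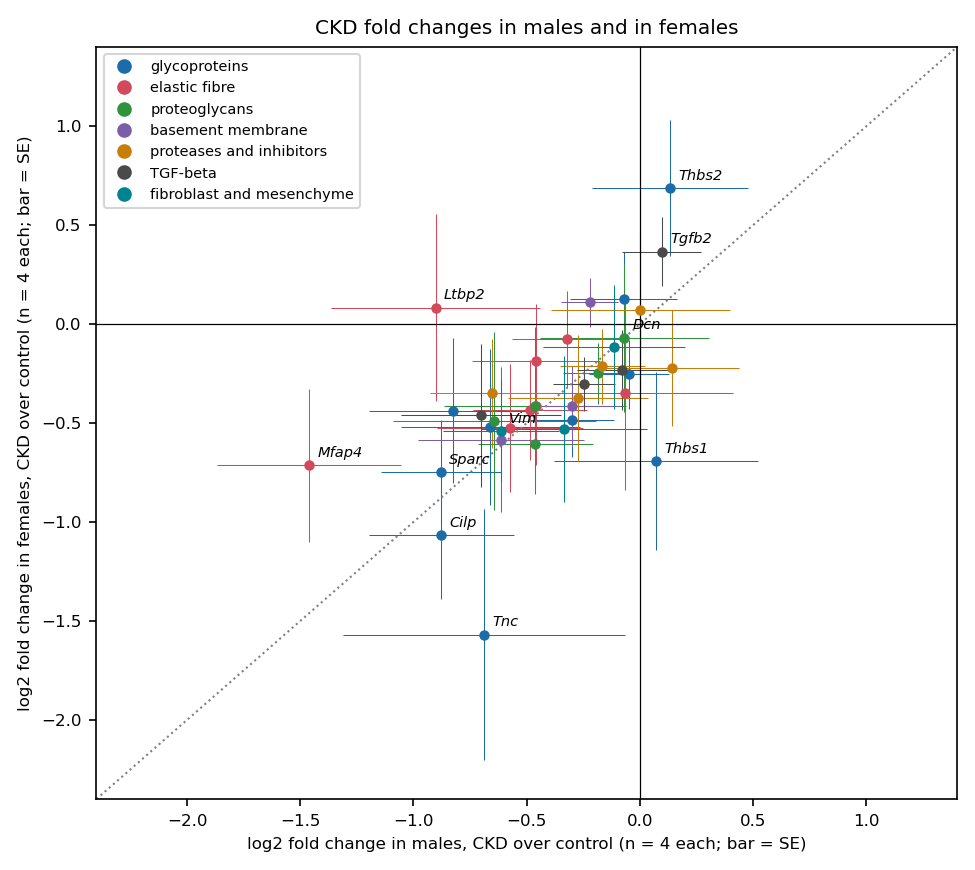
Log2 fold change of each gene, CKD over control, in males (horizontal) and in females (vertical), 4 against 4 mice each, with standard errors as bars and the dotted line marking equal values. Of the 38 genes 30 lie at the lower left, where both are negative, and Ltbp2, Thbs1, Tnc and Mfap4 lie furthest from the line.

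The GC content of transcripts moved with some libraries. Members had a median GC content of 52.2%, against 49.8% for all tested genes. The rank correlation across genes of a library's deviation with GC content was -0.51 to -0.41 in female CKD libraries 1 to 3 and -0.0013 in female CKD library 4, against -0.48 to 0.15 in female controls. In males it was 0.03 to 0.41 in CKD libraries and 0.0016 to 0.57 in controls. With the GC trend of each library removed, 33 of 38 members were negative in both sexes together (median -0.32, against 0.02 over all genes). In males 32 were negative (median -0.30, 43.8% of all genes negative) and in females 31 (median -0.27, 48.1% of all genes negative). None was called.

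Other genes of the same pathways, from lists written with earlier results of these data known, had the same prevailing sign, which is no independent support. The reference for this and the following lists is all tested genes, of which 49.8% were negative. At an unadjusted p below 0.05 edgeR had 7.24% of them lower and 8.12% higher. DESeq2 called 1.06% lower and 1.37% higher, and limma-voom 0.476% and 0.738%. Of 35 further glycoprotein and elastic fibre genes tested, 29 were negative (median -0.27), and edgeR called 0, with 6 lower and 1 higher at an unadjusted p below 0.05. Efemp2, the gene of fibulin 4, which elastic fibre assembly requires, had -0.61 (SE 0.13, adjusted p = 0.0852), and DESeq2 and limma-voom each called it alone in that list. Vtn and Smoc2, the genes of vitronectin and of a SPARC-related calcium-binding protein, had -0.55 and -0.54. Of 17 further proteoglycan genes, 13 were negative (median -0.37) and 0 were called by any of the 3 tools, with 4 lower at an unadjusted p below 0.05, led by Srgn at -0.46, Prelp at -0.68 and Sdc1 at -0.43. Of 10 further basement membrane genes 8 were negative (median -0.29) and 0 were called by any of the 3 tools, with 3 lower and 2 higher at an unadjusted p below 0.05, led by Papln at -1.50, Lama3 at -0.51 and Lama4 at -0.31.

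Of 38 further protease and inhibitor genes 30 were negative (median -0.22), edgeR called 0, and 6 were lower and 3 higher at an unadjusted p below 0.05. Serpinh1, which encodes the collagen chaperone HSP47 despite its serpin fold, had -0.79 (SE 0.16, adjusted p = 0.0813). Adamts9, a protease of versican, had -0.91 (SE 0.20, adjusted p = 0.0896), and Adamtsl2, whose protein binds fibrillin and LTBP1, had -1.01 (SE 0.28, adjusted p = 0.123). DESeq2 called these 3 and Plau lower, and limma-voom called Serpinh1 and Adamts9. Of 27 genes of TGF-beta activation, signalling and response, 23 were negative (median -0.21), edgeR called 0, and 7 were lower and 2 higher at an unadjusted p below 0.05. Itgb6, a chain of an integrin that activates latent TGF-beta, had -0.74 (SE 0.19, adjusted p = 0.103) and was called by DESeq2, and Tgfbr3, the co-receptor betaglycan, had 0.30 (SE 0.09, adjusted p = 0.130) and was called by limma-voom. Tgfb1i1, the gene of the adaptor HIC-5, had -0.58.

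Of 18 matrix receptor genes 15 were negative (median -0.25), edgeR called 0, and 5 were lower and 1 higher at an unadjusted p below 0.05. The laminin receptor chain Itga6 had -0.63 (SE 0.17, adjusted p = 0.119) and the collagen receptor chain Itga11 -1.03 (SE 0.30, adjusted p = 0.123), both called by DESeq2 and not by limma-voom, and Cd47, a thrombospondin receptor, had 0.24. Activated fibroblast markers outside the 38 were negative in 10 of 13 tested (median -0.34), edgeR called 0 with 1 at an unadjusted p below 0.05, and both DESeq2 and limma-voom called Meox1, a transcription factor of activated fibroblasts, at -1.05 (SE 0.26, adjusted p = 0.0946) in edgeR. The sum of these activated fibroblast markers was 234 to 427 CPM in CKD libraries and 232 to 525 CPM in controls. The 427 CPM was male CKD library 4, which was lowest of all libraries in most members. Acta2, with means of 134 CPM in CKD libraries and 161 CPM in controls, was the largest part. It also stands in the pericyte and smooth muscle list, so the sum cannot tell fibroblasts from smooth muscle cells.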

How the data were processed

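Read counts per gene were deposited by the authors in 1 table for all 16 libraries, as raw whole numbers. The submitters' processing notes name STAR 2.6.1d, featureCounts of Subread 1.6.3 and DESeq2 1.30.1, with mm10, and say neither which annotation nor which strand setting was used. Groups came from the sample titles, and replicate numbers follow record order and only name a library. Gene names, exon lengths and coordinates came from GENCODE M21 (GRCm38), which matched 33367 of 33399 identifiers.

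Counts were tested with edgeR 4.0.16 in R 4.3.3 (filterByExpr, minimum count 10 and total 15, TMM, quasi-likelihood F test, two-sided, Benjamini-Hochberg adjustment over 16400 genes, threshold 0.05). CKD was tested with sex as a covariate, and each sex, the interaction and the control sexes in a model of the 4 groups. With 10203707 to 13626039 counts per library, the spread between mice sets the precision (common biological coefficient of variation 0.225). Between libraries of 1 group, chi-square per degree of freedom of the counts was 8.03 to 58.8, and each library was counted as a separate sample.

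The members and the gene lists were chosen with earlier results of these data known. Every member is described by role, and those with the 4 lowest p-values in each role group are given in every library. Other genes named are the 3 with the lowest p of each pathway list, and in the marker lists those with the lowest p or called by another tool. Alternatives were DESeq2 1.42.0, limma-voom with quality weights (limma 3.58.1), other scalings and filters, the title code, GC content removal (lowess, span 0.3), and leaving out libraries.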

Additional observations from a re-analysis of the deposited data

Results flagged for a closer look

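In each group of 4 libraries, the highest and the lowest value of each member were compared with the other 3, and a library was marked when its gap exceeded Dixon's 95% critical value for 4 samples. Of 152 groups tested 13 were marked. Chance marks about 1 in 20 independent groups, but the members were read in the same libraries, so the groups are not independent and the count has no test.

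Female CKD library 4 was the high library in 8 of them, as the following CPM values show beside the range of the other 3 female CKD libraries. Fn1 was at 43.3, against 14.9 to 16.4. Sparc was at 294.8, against 125 to 146. Postn was at 60.4, against 23.6 to 29.0. These are the glycoproteins fibronectin, SPARC and periostin, and each lay within the range of the female controls. Pcolce was at 33.4, against 23.5 to 24.1, and Mfap4 at 15.6, against 4.22 to 5.45. Ltbp2 was at 3.88, against 1.36 to 1.72. The proteoglycan gene Lum was at 105.8, against 45.9 to 54.3, and the protease gene Mmp2 at 51.5, against 24.1 to 26.8.

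Male CKD library 4 was the low library in 2, with Mgp at 59.7 CPM, where male CKD libraries 1 to 3 had 151 to 167, and Dcn at 102.9 CPM, against 646 to 758. The other 3 marked values were Thbs1 in female CKD library 3, low at 3.78 CPM against 8.83 to 9.62, Fbln2 in male control library 1, low at 69.3 CPM against 77.5 to 79.0, and Mmp14 in male control library 3, high at 13.8 CPM against 10.7 to 11.2.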

How the results depend on the processing

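For CKD against control in both sexes, 32 to 36 of 38 members stayed negative under all alternatives and all libraries left out, with the median between -0.46 and -0.26. The count of members called, 0 in edgeR, became 3 with DESeq2, with limma-voom, with the title code as a factor and without male_CKD 4 and female_CKD 4 (chosen after seeing the data), 2 with no filter and with title code 6 only, and 1 without male_CKD 4 and female_control 2, and it ran from 0 to 3 with 1 library left out. Of all genes, 14 were called, against 398 with DESeq2, 199 with limma-voom, 53 with no filter, 234 with the code as a factor, 8 with code 6 only, 22 without male_CKD 4 and female_control 2, 67 without male_CKD 4 and female_CKD 4, and 6 (without male_CKD 1, male_control 4, female_CKD 1, 2 or 3, or female_control 3) to 43 (without female_CKD 4) with 1 library left out.

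In males 0 of all genes were called by edgeR, 12 by DESeq2, 1 with no filter and 0 to 1 with a library left out. In females 9 genes were called, against 32 with DESeq2, 55 with limma-voom, 3 with code 6 only, 0 with only the 8 libraries compared and 0 to 13 with a library left out; limma-voom called 1 member there. Between female and male controls 1 gene was called, against 7 with DESeq2, 3 with limma-voom, 3 with no filter, 4 with the code as a factor, 3 with code 6 only, 2 with the GC trend removed, 4 without male_CKD 4 and female_control 2, 0 with only the 8 libraries compared, and 1 to 5 with a library left out.

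Fold changes near 0 turned sign: Mgp (-0.040 with the code as a factor, -0.036 to 0.15 with a library left out), Dcn (0.060 with limma-voom, 0.13 without male_CKD 4 and female_control 2, 0.052 without male_CKD 4 and female_CKD 4, -0.17 to 0.089 with a library left out), Timp1 (0.014 with the GC trend removed, -0.14 to 0.064), Timp3 (-0.067 with the code as a factor, -0.085 to 0.20) and Pdgfra (0.087 without male_CKD 4 and female_control 2, -0.23 to 0.017). The cause was not tested. Tnc dropped out under the filter of 1 CPM in 8 libraries. No paired analysis was possible because the labels give no replicate numbers shared by the groups. Depth limits Tnc most among the members.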

Other observations

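Among vascular markers, Kdr, the VEGF receptor of endothelial cells, was at -0.72 log2 units for CKD over control (SE 0.18, adjusted p = 0.0946). Cldn5, an endothelial tight junction gene, had -0.78 (SE 0.20, adjusted p = 0.106). Of the 14 endothelial markers edgeR called 0, DESeq2 called these 2 (1.06% of all genes lower) and limma-voom called Cldn5 (0.476% of all genes lower). The pan-endothelial marker Pecam1 was at -0.09 (SE 0.18). The pericyte genes Higd1b and Vtn had -0.57 (SE 0.19) and -0.55 (SE 0.19). No pericyte or smooth muscle marker was called by edgeR, DESeq2 or limma-voom, and 2 were lower at an unadjusted p below 0.05 in edgeR (7.24% of all genes were). In cardiomyocytes, Tnnt2, the gene of troponin T, had 0.36 (SE 0.10, adjusted p = 0.123) and was the 1 cardiomyocyte marker called by DESeq2, and Tnni3, the gene of troponin I, had 0.26 (SE 0.12). The macrophage gene Cd68 was at -0.37 (SE 0.17) and Timd4, a marker of resident macrophages, at -0.34 (SE 0.22). The 14 macrophage markers ran both ways, with 11 negative and 3 positive, a median of -0.11 and a highest value of 0.34. None was called by edgeR, DESeq2 or limma-voom, and 1 was lower at an unadjusted p below 0.05 in edgeR (7.24% of all genes were).

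Markers of atrial, valve, epicardial and mesothelial, and adipose tissue were also summed. Which cells their RNA came from was not tested, and Dkk3 stands in both the atrial and the valve list. Over all tested genes 49.8% had negative CKD fold changes. Atrial markers had sums of 205 to 803 CPM in CKD libraries, the highest being male CKD library 4, and 270 to 979 CPM in controls, with 5 of 8 negative (median -0.29), Myl4 at -0.55 (SE 0.45) and Dkk3 at -0.38 (SE 0.26). Valve markers summed to 54.2 to 129 CPM in CKD libraries, the lowest being male CKD library 4, and 79.3 to 133 CPM in controls, with 6 of 8 tested negative (median -0.21), Spock2 at 0.71 (SE 0.25) and Comp at -0.50 (SE 0.31). Epicardial and mesothelial markers summed to 58.3 to 79.0 CPM in CKD libraries and 44.1 to 82.1 CPM in controls, with 4 of 9 tested negative (median 0.09), Muc16 at 0.46 (SE 0.16) and Krt8 at -0.66 (SE 0.27). Adipocyte markers summed to 30.3 to 75.4 CPM in CKD libraries and 37.7 to 68.6 CPM in controls, with 3 of 7 tested negative (median 0.10), Retn at -0.55 (SE 0.38) and Ucp1 at 1.22 (SE 1.17). None of the markers in these 4 lists was called by edgeR, DESeq2 or limma-voom. At an unadjusted p below 0.05 edgeR had 2 epicardial markers lower and 2 higher and 1 valve marker higher, against 7.24% of all genes lower and 8.12% higher.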
